A study of Oryza sativa with 6 samples.

Results

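Ethylene, jasmonate and abscisic acid are plant hormones that act in responses to stress, and the array probes described with their enzymes, receptors and downstream proteins were examined together. A probe was taken as a member when its description held one of a set of words for these hormones or for dehydration (ethylene, 1-aminocyclopropane, lipoxygenase, allene oxide, oxophytodieno, jasmon, abscisic, dehydrin, late embryogenesis, dehydration). Left out were 11 probes with such words, namely those described as transcription factors of the ethylene response factor and AP2 families and 1 other RD22 probe. A factor described in other words would remain a member. This gave 75 of 21495 rice probes. Of these, 4 were taken in only because "methylene" holds the letters of ethylene, and they belong to folate, sterol and alkaloid enzymes. The remaining 71 carry names of the 3 hormones or of dehydration proteins, so the label fits them as far as descriptions go. The classes with most members were jasmonate synthesis with 24 probes, ethylene perception and signalling with 14 and ethylene synthesis with 11. The 14 include probes described only as ethylene-responsive or ethylene-induced. The 75 members carried 49 different descriptions, and 15 descriptions were shared by several probes, which together make up 41 members. Such probes may measure 1 gene or related genes, and the descriptions, many of them taken from other plant species, do not settle which.

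The study grew a pair of rice lines in 12 L pots of Andosol, a volcanic soil, and took 1.6 g of root for RNA. The line 6-4 is near-isogenic to the japonica cultivar Nipponbare and holds inserted segments of the indica cultivar Kasalath. Control plants had soil rich in phosphorus (P), and P-deficient plants had soil without P, as the labels put it. The 6 arrays of 2 colours each held both lines from the same condition, 3 arrays per condition, from 3 biological replicates of each line and condition, so that p-values measure the spread between these samples. Plant age was not given in the sources used here. Control replicate 2 and P-deficient replicates 1 and 3 had 6-4 in Cy5, and the remaining 3 arrays had it in Cy3. Each condition therefore has 1 array in the opposite dye order, replicate 2 in both.

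Ethylene is made from S-adenosylmethionine by ACC synthase and then ACC oxidase, where ACC is 1-aminocyclopropane-1-carboxylate. It is perceived by receptors of the ETR and ERS type that repress signalling until they bind the gas, and the signal reaches the nucleus through EIN3-like (EIL) transcription factors. Jasmonate is made from linolenic acid by lipoxygenase, allene oxide synthase, allene oxide cyclase and 12-oxophytodienoate reductase (OPR), and JMT turns jasmonic acid into its methyl ester. Abscisic acid rises when water is short and induces proteins such as Asr, dehydrins and the late embryogenesis abundant (LEA) family. In roots, ethylene is known for its part in root hair growth and in responses to low phosphate.

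A member was tested when some group of line and condition (4 in all) had its spot well above background on each of its 3 arrays. This held for 67 of 75, and 60 were well above background in all 12 channels. The 8 that did not pass were AK067321 (JMT), AK067477 (a jasmonate-induced protein), AK066737 and AK071915 (lipoxygenases), AK106409 (an OPR), AK063645 and AK108165 (LEA proteins) and AK106094 (an RD22-like protein). Over all rice probes, 89.8% to 95.5% were well above background in Cy3 and 95% to 99.5% in Cy5. With 3 arrays per condition, precision is limited by array number. Of 14 probes for root genes, 13 were well above background in all 12 channels, while 23 of 32 probes for leaf photosynthesis genes and 5 of 9 for seed storage proteins were too. Signal over background therefore does not set root apart from other tissues here. In Cy3 the negative control spots were bright on control replicate 2 and P-deficient replicate 2, at 5.06 and 4.8 times local background. They were at 2.86 on control replicate 1 and at 1.19 to 1.45 on the other 3 arrays, and in Cy5 at 1.06 to 1.1 on all 6. Weak Cy3 signals on the first 3 of these arrays may be overstated.

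In the response to P deficiency, taken as the mean of both lines, a single tested member passed an adjusted p of 0.05 (limma, Benjamini-Hochberg over all 20531 probes tested): 1 rose and 0 fell among 67. Over all probes 1.51% were called, 1.04% higher and 0.468% lower. The median change of the members was -0.0029 on the log2 scale against -0.0094 over all probes. Their median absolute change was 0.17 against 0.13, and 11 of 67 had an unadjusted p under 0.05, where 11% of all probes did. Of 66 members with a value on every array, 9 had P-deficient and control levels that did not overlap, 5 of them higher and 4 lower, where 16.6% of all probes did not overlap. Without the 4 methylene probes the counts were again 1 and 0, of 63. In pooled root tissue, a change in the number of cells of a type and a change in RNA per cell cannot be told apart.

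**Figure D1:**
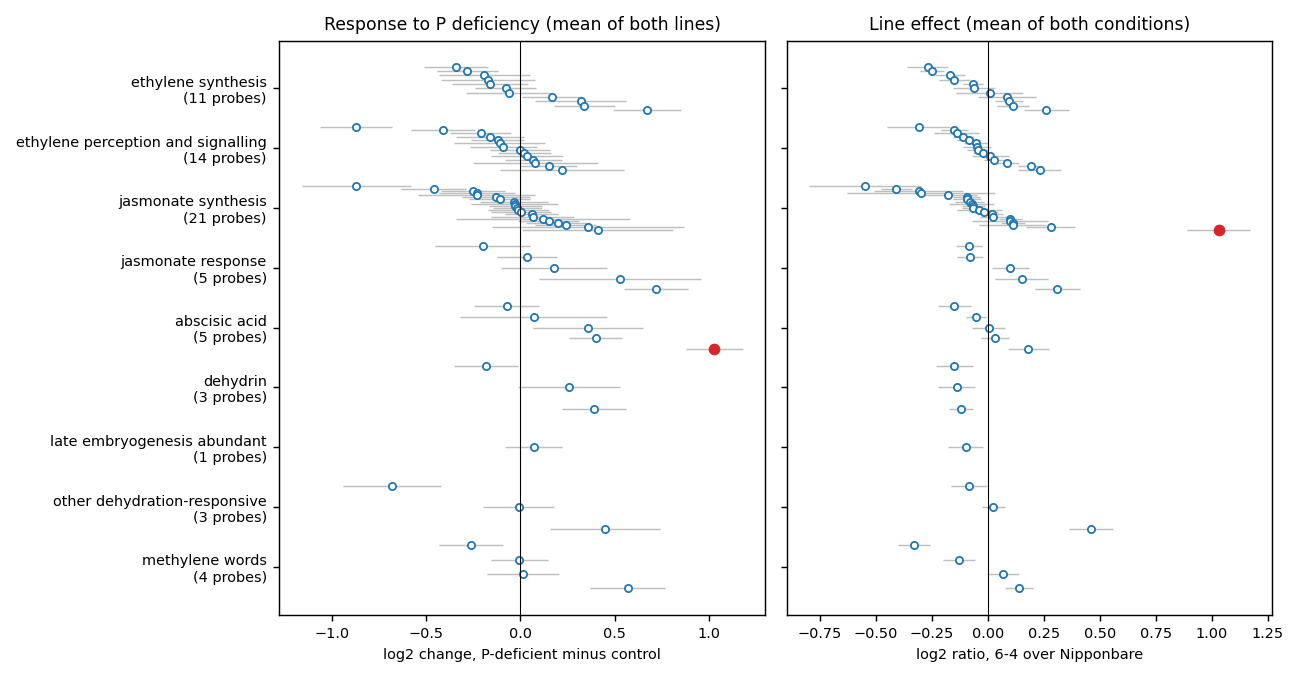
Log2 change under P deficiency (left, mean of both lines) and log2 ratio of 6-4 over Nipponbare (right, mean of both conditions) for the 67 tested members, grouped by role. Each point is a probe with its standard error, and the filled red point in each panel is the 1 member past an adjusted p of 0.05, AK103729 on the left at 1.03 and AK105590 on the right at 1.03.

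The labels number replicates alike in both conditions, and same-numbered arrays deviated together in level. Arrays of different numbers had correlations from -0.531 to 0.277, the highest for control replicate 2 with P-deficient replicate 1. Those 2 arrays share a software version, so the levels do not settle whether replicate number or version joins the arrays. Calls with the block rest on taking the number as a pairing. With the replicate number as a block, 6 members were called in the mean response, 3 higher and 3 lower, where 4.28% of all probes were called. The 6 came from 6 different roles, and the log2 changes are those of the fit without the block. Beside the abscisic acid-activated gene AK103729 they were the JMT probe AK068748, the ACC synthase AK065212, the esterase AK061058, the OPR probe AK061212 and the RD22 probe AK106070. Header software versions split the arrays into replicates 1 and 2 and replicate 3, and with the version as a batch 6 members were called too, where 3.63% of all probes were.

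**Figure D2:**
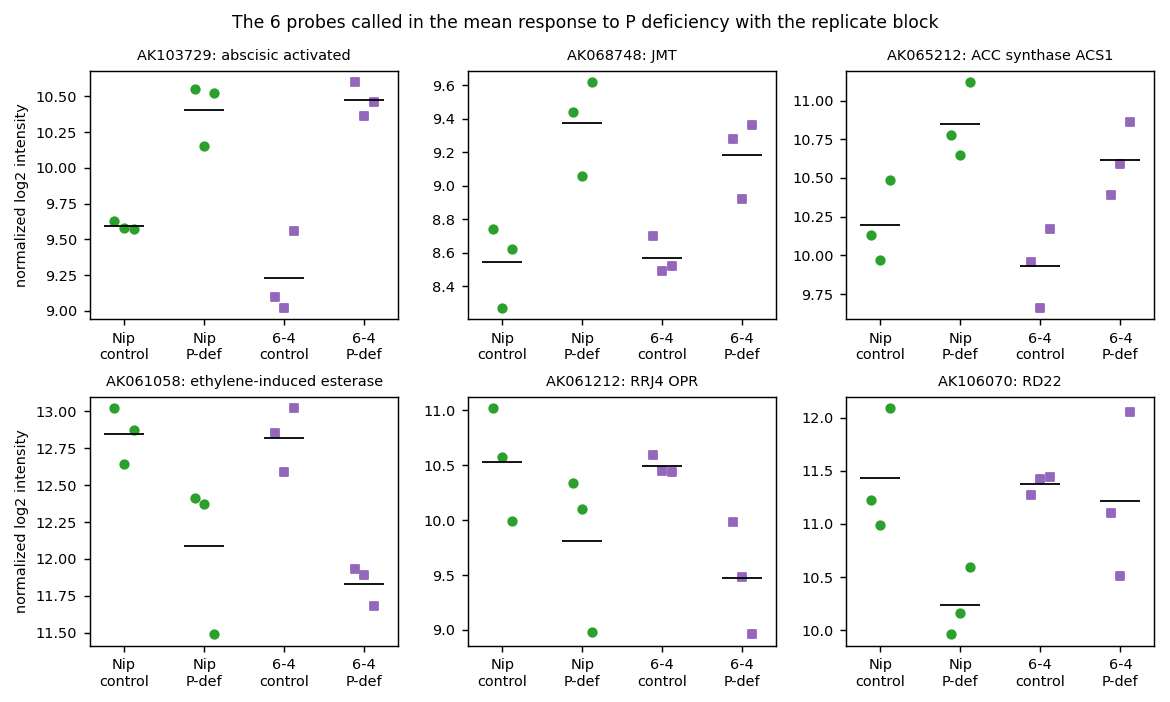
Normalized log2 intensity of the 6 members called in the mean response with the replicate block, in each channel of the arrays. Points are single channels, 3 per group, circles for Nipponbare and squares for 6-4, and bars are means. For AK103729 every P-deficient channel, from 10.15 to 10.60, lies above every control channel, from 9.02 to 9.63.

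Among the 5 abscisic acid probes, AK103729, described by an alfalfa mRNA of an abscisic acid-activated gene, rose in roots without P. Its mean log2 level over both lines was 9.36, 9.30 and 9.57 on the control arrays and 10.58, 10.26 and 10.49 on the P-deficient arrays. The conditions did not overlap on any array. The change was 1.03 (SE 0.15), or 2.04-fold, with an adjusted p of 0.0122 by limma and of 0.00261 with the replicate block. It lost the call without P-deficient replicate 1 (adjusted p = 0.0568), without control replicate 1 (0.0911) and without control replicate 2 (0.0786), with changes of 0.96 to 1.01. Median scaling between arrays also left AK103729 uncalled, in the mean and in 6-4. From the deposited processed signals it was not called in the mean either. In 6-4 alone the change was 1.29 (SE 0.20, adjusted p = 0.00621). In Nipponbare it was 0.77 (SE 0.20), which did not pass without the block (adjusted p = 0.106) and did with it (0.0100). The difference between the lines, 0.52 (SE 0.16), had an adjusted p of 0.0644, so a larger response in 6-4 was not shown.

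The Asr1 probes are named for an abscisic acid- and stress-inducible protein, and the 3 of them differed from each other. AK060571 was at 10.26, 10.18 and 10.43 on the control arrays and at 10.52, 10.71 and 10.84 on the P-deficient arrays. All P-deficient arrays were higher, by 0.40 (SE 0.14) on the log2 scale, and the change did not pass in the mean (adjusted p = 0.324). With the block it passed within Nipponbare (0.42, SE 0.10, adjusted p = 0.0302) and within 6-4 (0.38, SE 0.10, adjusted p = 0.0334). The other Asr1 probes changed by -0.073 (AK063053, SE 0.17) and 0.072 (AK064892, SE 0.39), well inside their errors. The fifth probe, AK066307, was at 0.36 (SE 0.29). It is described by a water fern mRNA of an abscisic acid-regulated operon of chloroplast genes. The median of the 5 was 0.36, and 4 of 5 were positive.

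Dehydrins are hydrophilic proteins that plants accumulate as cells dry. Of 3 dehydrin probes, 0 were called in the mean response and 1 had an unadjusted p under 0.05, with changes of 0.39 (AK063517, SE 0.17), 0.26 (AK071366, SE 0.27) and -0.18 (AK109096, SE 0.17). AK063517 carries the same maize dhn1 description as AK071366. Its change in Nipponbare, 0.44 (SE 0.11), passed with the block (adjusted p = 0.0310) and not without it (0.25). The single tested LEA probe, AK061818, stood at 13.08, 12.99 and 13.33 under control and 13.14, 13.13 and 13.35 under P deficiency. These levels overlap, and the change was 0.071 (SE 0.15).

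RD22 is a dehydration-responsive protein, first described in Arabidopsis, whose mRNA is induced by drought and abscisic acid. AK106070, described by the peach RD22 mRNA, was at 11.25, 11.20 and 11.76 on control arrays and at 10.53, 10.34 and 11.32 on P-deficient arrays. P-deficient replicate 3 lay above control replicates 1 and 2, so the groups overlapped, while each P-deficient array was below its same-numbered control. The mean change of -0.68 (SE 0.26) had an adjusted p of 0.373 without the block and passed with it (SE 0.13, adjusted p = 0.0227). In Nipponbare the levels were 11.23, 10.99 and 12.09 under control and 9.96, 10.16 and 10.59 under P deficiency, with no overlap. That change was -1.05 (SE 0.32, adjusted p = 0.154), and it passed with the block (SE 0.17, adjusted p = 0.00778). In 6-4 the levels were 11.27, 11.42 and 11.44 against 11.10, 10.51 and 12.05, which overlapped, and the change was -0.30 (SE 0.32). Of the RD22-like probes named after a cotton mRNA, AK065358 changed by 0.45 (SE 0.29) and AK059729 by -0.0088 (SE 0.19).

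Ethylene synthesis had 11 tested probes, of which 0 were called in the mean response and 1 had an unadjusted p under 0.05, with a median change of -0.078 and a range from -0.34 to 0.67. The highest was AK065212, an ACC synthase probe described by the wheat ACS1 mRNA. Its level was 10.04, 9.82 and 10.33 on control arrays and 10.58, 10.62 and 10.99 on P-deficient arrays, so all P-deficient arrays were higher. The change was 0.67 (SE 0.18, adjusted p = 0.155) and passed with the block (SE 0.12, adjusted p = 0.0168). It also passed with the block within Nipponbare (0.62, SE 0.11, adjusted p = 0.00926) and within 6-4 (0.72, SE 0.11, adjusted p = 0.00391), and in neither without it (0.147 and 0.088). The other ACC synthase probes did not pass, with 0.32 for the rice ACC1 (AK071011, SE 0.24) and -0.06 for the wheat ACS2 (AK064250, SE 0.23).

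The 8 ACC oxidase probes, for the enzyme that releases ethylene, gave 0 calls in the mean response, with or without the block. AK059964 was lower on every P-deficient array, with 13.03, 13.00 and 12.57 against 13.04, 13.13 and 13.28 under control. Its lowest control level exceeded its highest P-deficient level by little, and the change was -0.28 (SE 0.16, adjusted p = 0.619). AK058296, with the same description, was at -0.34 (SE 0.17), and its change within 6-4, -0.47 (SE 0.12), passed with the block (adjusted p = 0.0269) and not without it (0.254).

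Of the 14 probes for ethylene perception and signalling, 0 were called in the mean response and 2 had an unadjusted p under 0.05, with a median of -0.046. The class holds every remaining ethylene description. The 2 probes were AK061058 and AK071873, named as ethylene-induced or ethylene-responsive, and neither is a receptor or an EIL factor. The receptors ERS2 (AK111696), ETR2 (AK111748), OSERS (AK065161) and the receptor-like proteins 1 and 2 (AK109593, AK111520, AK111581) ranged from -0.16 to 0.037. The EIL1 probes (AK060826, AK068429, AK101076) and the EIL2 probe (AK060806) ranged from 0.069 to 0.22, with standard errors of 0.15 to 0.33. All of these lay within about the size of their own error. The exception in the class was AK061058, described by an ethylene-induced esterase of orange, with levels of 12.94, 12.62 and 12.94 under control and 12.17, 12.13 and 11.58 under P deficiency. It was lower on every P-deficient array, with a change of -0.87 (SE 0.19, adjusted p = 0.0735) that passed with the block (SE 0.17, adjusted p = 0.0263). AK071873, an elongation factor EF-Ts described as ethylene-responsive in tomato, was next at -0.41 (SE 0.17, adjusted p = 0.435).

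Jasmonate synthesis had 21 tested probes, of which 0 were called in the mean response without the block and 2 had an unadjusted p under 0.05, with a median of -0.015. The probes described as lipoxygenases (AK064795, AK066825, AK071121, AK073529, AK073570, AK103565) ranged from -0.25 to 0.41. Their descriptions do not settle which of them act in jasmonate synthesis. The allene oxide synthases (AK066137, AK066138, AK068620, AK105964, AK107161) ranged from -0.23 to 0.12. Allene oxide cyclase (AK071443) was at 0.24 (SE 0.16). The CM-LOX2 lipoxygenase AK066825 had the highest value of the class, 0.41, but its standard error was 0.40, since P-deficient levels of 11.14, 10.38 and 9.35 spanned those of the control arrays, 10.33, 9.55 and 9.76. Allene oxide synthase AK066138 varied in a like way, with P-deficient levels of 10.95, 10.42 and 8.93 that enclosed its control levels of 10.47, 9.80 and 9.66.

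OPR reduces 12-oxophytodienoic acid in the later part of the pathway, though a description as OPR does not settle that a probe's enzyme acts there. The description of the rice OPR RRJ4 was carried by 6 tested probes. Their mean changes under P deficiency ran from -0.87 to 0.36. AK061212 was at 10.80, 10.51 and 10.22 under control and at 10.16, 9.79 and 8.97 under P deficiency. All P-deficient arrays were lower, and the change of -0.87 (SE 0.29, adjusted p = 0.272) passed with the block (SE 0.14, adjusted p = 0.0137). AK100034 was also lower on every P-deficient array, with 9.06, 9.03 and 9.43 against 9.48, 9.88 and 9.54. Its change of -0.46 (SE 0.17, adjusted p = 0.344) was not called with the block either. The remaining 4 were at 0.20 (AK108079, SE 0.17), 0.067 (AK103067, SE 0.22), -0.035 (AK069898, SE 0.18) and 0.36 (AK105590, SE 0.51). The other OPR descriptions, OPR2 of Arabidopsis (AK067218, AK102440) and OPR3 of tomato (AK071203), gave -0.13, -0.026 and 0.061.

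**Figure D3:**
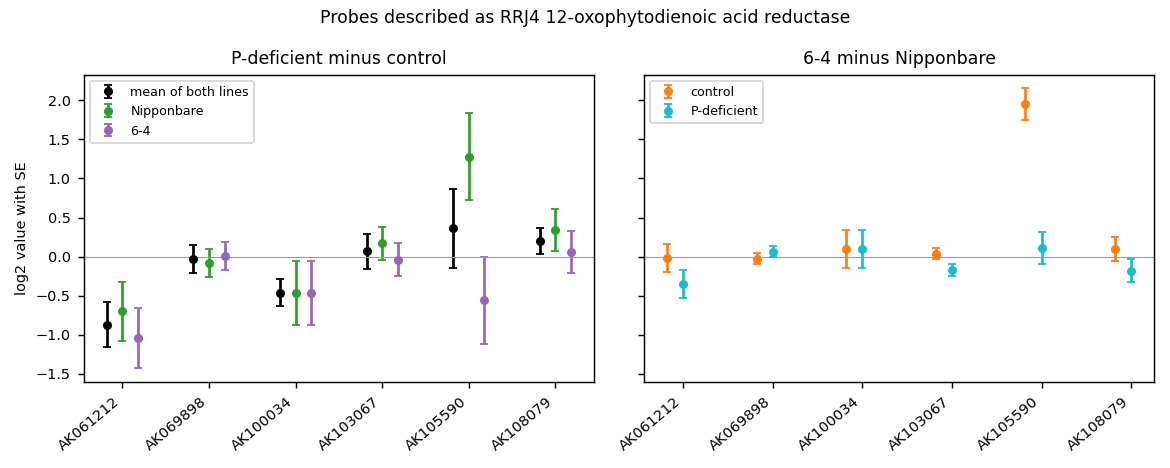
The 6 tested probes that share the RRJ4 OPR description, with the log2 change from control to P deficiency on the left and the log2 ratio of 6-4 over Nipponbare in each condition on the right. Points are fitted values and bars are standard errors. AK105590 stands apart on the right at 1.95 under control, and AK061212 is lowest on the left at -0.87.

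Of the 5 tested jasmonate response probes, 0 were called in the mean response and 1 had an unadjusted p under 0.05. The JMT probe AK068748, described by the Arabidopsis enzyme that makes methyl jasmonate, was at 8.72, 8.38 and 8.57 under control and 9.36, 8.99 and 9.49 under P deficiency. Every P-deficient array was above every control array. The change of 0.72 (SE 0.17) had an adjusted p of 0.0979, and it passed with the block (SE 0.12, adjusted p = 0.0141). Within Nipponbare it was 0.85 (adjusted p = 0.0604, and 0.00463 with the block), and within 6-4 it was 0.60 (adjusted p = 0.148, and 0.0117 with the block). The 4 tested probes of a barley jasmonate-induced protein were at 0.53 (AK065384, SE 0.43), 0.18 (AK066682, SE 0.28, on 5 arrays because P-deficient replicate 3 was an outlier spot), 0.037 (AK101991, SE 0.16) and -0.20 (AK107844, SE 0.25). For AK065384, P-deficient replicate 2 alone was high, at 8.95, while the other P-deficient arrays were at 7.23 and 7.09 and the control arrays at 7.06 to 7.48.

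The 4 methylene probes, which stand outside the hormone pathways, had 0 calls in the mean response and 1 with an unadjusted p under 0.05. That was AK069480, described by a poppy enzyme of alkaloid synthesis, at 0.57 (SE 0.20, adjusted p = 0.303), with all P-deficient arrays above all control arrays. The other 3 ran from -0.26 to 0.016.

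Within single lines, 0 of 66 members were called in Nipponbare, where 0.883% of all probes were (0.613% higher). At an unadjusted p under 0.05 there were 11 of 66, where 15.5% of all probes were. In 6-4, 1 of 66 was called, where 1.44% of all probes were (1.11% higher), and this was AK103729. At an unadjusted p under 0.05 there were 8 of 66, where 16.5% of all probes were. With the block, 7 members were called in Nipponbare against 12.1% of all probes, and 8 in 6-4 against 14.8%. The lists shared AK103729, AK065212, AK068748 and AK060571, which are 4 of the 7 and 4 of the 8. They come from the same arrays, and a member in only 1 of them is not shown to differ between the lines.

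Averaged over both conditions, 1 of 67 members differed between the lines, higher in 6-4, where 0.926% of all probes did (0.263% higher). The members' median log2 ratio of 6-4 over Nipponbare was -0.053 against 0.0035 over all probes, with 28 positive and 39 negative. A ratio can reflect the amount of a transcript or how well its Kasalath form binds the probe. With a value on every array, 9 of 66 members went the same way on all 6, where 5.4% of all probes did, 1 higher in 6-4 and 8 lower. Among the 8 lower were the ACC synthase AK065212, the ACC oxidase AK065039, the ethylene-responsive protein ebp-89 (AK073133), EIL1 (AK101076), allene oxide synthase (AK105964), the dehydrin AK063517 and the methylene probe AK069480. The 1 higher was AK111917, described by the small GTP-binding protein ER43 of tomato. In the mean ratio 0 of these 9 passed the threshold, and AK105964 came closest at -0.41 (SE 0.069, adjusted p = 0.0595), followed by AK065212 at -0.25 (SE 0.053, adjusted p = 0.0939).

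The 1 called member was the OPR probe AK105590. Its log2 ratios were 1.78, 2.58 and 0.92 on the control arrays and 0.28, -0.40 and 1.01 on the P-deficient arrays, so 5 of 6 were positive and the third P-deficient ratio exceeded the third control ratio. The mean ratio was 1.03 (SE 0.14, adjusted p = 0.0302), or 2.04-fold. AK105590 was the 1 member called with the block too (adjusted p = 0.00914), where 1.5% of all probes were. In the line fits the block leaves few degrees of freedom per probe, so calls with it add little. Correlations of line ratios between arrays followed dye order and showed no pairing by replicate number. Under control it was 1.95 (SE 0.20, adjusted p = 0.0145), or 3.86-fold, and under P deficiency 0.11 (SE 0.20, adjusted p = 0.736). Nipponbare control channels were at 6.72, 6.65 and 9.32, with 2 of 3 well above background, and those of 6-4 at 8.50, 9.23 and 10.23. Under P deficiency the channels of Nipponbare, 9.21, 8.93 and 7.81, overlapped those of 6-4, 9.50, 8.53 and 8.82. The other 5 RRJ4 probes had ratios from -0.026 to 0.10 under control, and from -0.35 to 0.10 under P deficiency, and 0 of them were called.

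The control ratio of AK105590 lost its call without control replicate 2 (1.87, adjusted p = 0.237), the 1 control array with 6-4 in Cy5, and without P-deficient replicate 3 (1.92, adjusted p = 0.0599). Without the dye term it was 1.76 (adjusted p = 0.203). Its mean ratio lost the call without control replicate 2 (adjusted p = 0.165) or without any 1 of the 3 P-deficient arrays (adjusted p = 0.0688 to 0.165).

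Under control conditions 3 of 67 members were called, all higher in 6-4, against 12.9% of all probes, 6.74% higher and 6.19% lower. Beside AK105590 they were the ethylene receptor ERS2 (AK111696) and the ACC synthase ACC1 (AK071011). ERS2 had ratios of 0.07, 0.55 and 0.12 under control and 0.18, -0.33 and -0.083 under P deficiency. All control arrays were positive, with the highest on replicate 2, and P-deficient replicate 1 lay among them. The fitted control ratio was 0.31 (SE 0.078, adjusted p = 0.0471), or 1.24-fold. ACC1 had ratios of 0.51, 0.58 and 0.017 under control and -0.033, -0.30 and -0.12 under P deficiency, so all control ratios were above 0 and all P-deficient ratios below it. Its control ratio was 0.41 (SE 0.11, adjusted p = 0.0492), or 1.33-fold, and 2 of 3 Nipponbare control spots were well above background. With the replicate block, where 6.59% of all probes were called, both lost the call (adjusted p = 0.142 and 0.0715), while AK107844 gained it at 0.64 (SE 0.11, adjusted p = 0.0227). Without control replicate 2 the adjusted p was 0.46 for ERS2 and 0.447 for ACC1, and ERS2 lost its call without any other single array as well (0.0562 to 0.0914). Of the 6 arrays left out in turn, only the loss of control replicate 3 left ACC1 called (0.0115).

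**Figure D4:**
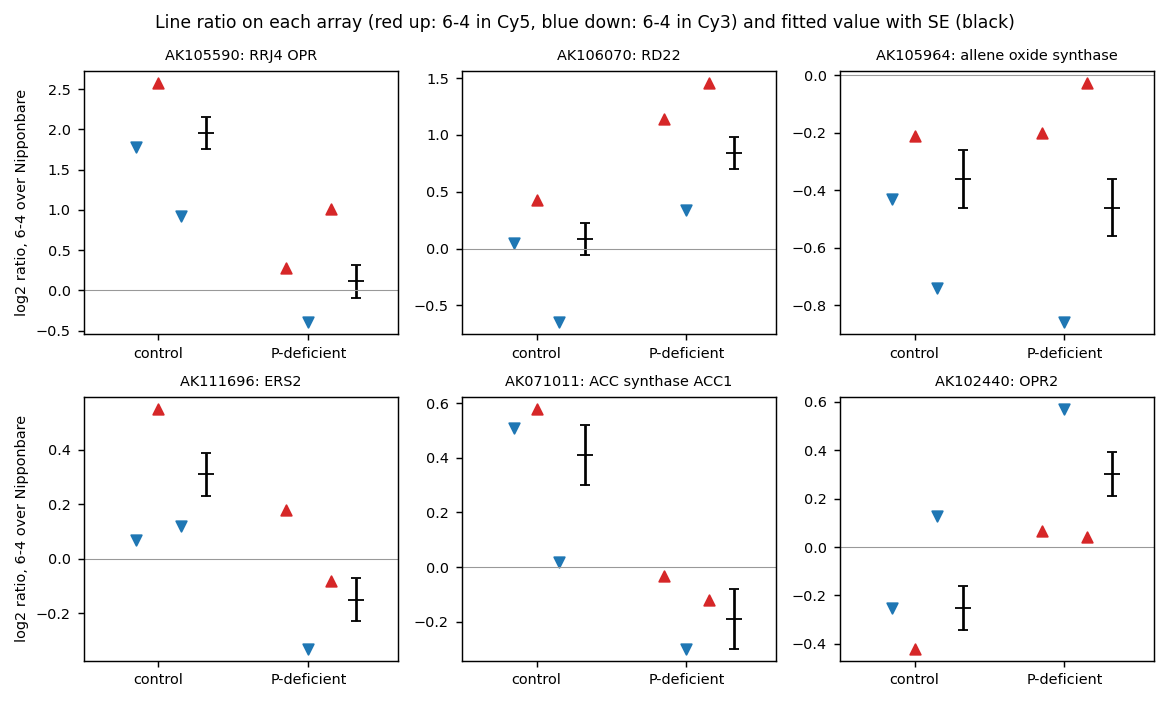
Log2 ratio of 6-4 over Nipponbare on each array for 6 members called in at least 1 comparison of the lines, by condition. Upward red triangles are arrays with 6-4 in Cy5, downward blue triangles those with 6-4 in Cy3, and black crosses are fitted values with standard errors. Each condition has 1 array in the opposite dye order, which is replicate 2 in both.

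Under P deficiency 2 of 67 members were called, 1 higher and 1 lower in 6-4, against 8.94% of all probes, 4.32% higher and 4.62% lower. The RD22 probe AK106070 was higher in 6-4, with ratios of 1.14, 0.34 and 1.46, all above 0, against 0.048, 0.43 and -0.65 under control. The fitted ratio was 0.84 (SE 0.14, adjusted p = 0.0254), or 1.79-fold, and it passed with the block (adjusted p = 0.0305), where 3.44% of all probes did. Allene oxide synthase AK105964, described by the wild tobacco enzyme, was lower in 6-4. Its ratios were -0.20, -0.86 and -0.025 under P deficiency and -0.43, -0.21 and -0.74 under control, below 0 on all 6 arrays and overlapping between conditions. The fitted ratio was -0.46 (SE 0.10, adjusted p = 0.0423), or 1.37-fold lower in 6-4, and it did not pass with the block (adjusted p = 0.0727). Both calls were lost without control replicate 2 (adjusted p = 0.0519 and 0.0577) and without any 1 of the P-deficient arrays (0.135 to 0.418). The other allene oxide synthase probes were at -0.019 (AK066137), -0.44 (AK066138), -0.085 (AK068620) and -0.62 (AK107161) under P deficiency, and 0 of them passed.

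The line ratio differed between the conditions for 7 of 67 members, 2 with a higher ratio under P deficiency and 5 with a lower one, against 19.7% of all probes, 9.4% higher and 10.3% lower. The lower 5 were AK105590 (OPR), AK107844 (jasmonate-induced protein), AK065358 (RD22-like), AK071011 (ACC1) and AK111696 (ERS2). The higher 2 were AK106070 (RD22) and AK102440 (OPR2). Of the 7, 3 were well above background in all 12 channels, namely ERS2, OPR2 and RD22. With the block 4 were called, where 12.4% of all probes were. These were AK105590 (adjusted p = 0.00915), AK107844 (0.0104), AK065358 (0.0424) and AK065384 (-0.62, adjusted p = 0.0444), so ACC1, ERS2, OPR2 and RD22 lost the call (adjusted p = 0.0531, 0.111, 0.0722 and 0.0576). Without control replicate 2, 0 of the 7 were called, and the difference of AK105590 (-1.84, SE 0.29, adjusted p = 0.00958) also lost its call without P-deficient replicate 2 (-1.93, adjusted p = 0.0616).

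AK107844 rested on replicate 2 in both conditions. Its ratios were -0.23, 1.59 and 0.022 under control and 0.03, -0.52 and -0.015 under P deficiency. AK065358 had its extremes there as well, with -0.14, 0.70 and -0.13 under control and -0.42, -0.67 and 0.15 under P deficiency. OPR2 (AK102440) likewise ran -0.25, -0.42 and 0.13 under control and 0.065, 0.57 and 0.043 under P deficiency. Replicate 2 is the array of the opposite dye order in each condition, and in the fit without a dye term 0 of the 7 were called. What part the dye order and the bright Cy3 background of these 2 arrays had in the differences was not tested.

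Other genes of these pathways were matched by further words, including those of factors that the member rule left out. These probes gave 1 higher and 1 lower call in the mean response to P deficiency. Over all probes 1.51% were called there and 11% had an unadjusted p under 0.05. Of 21 probes for ethylene (S-adenosylmethionine synthetase, EIN3-like and EREBP factors) 0 passed in limma, and 2 had an unadjusted p under 0.05, with the lowest adjusted p at 0.074 for an EREBP-type factor (AK111690, 0.66). Of 17 tested probes for jasmonate (phospholipases, acyl-CoA oxidases and others) 0 passed and 2 had an unadjusted p under 0.05. The words for abscisic acid covered its synthesis enzymes, ABI3, ABI5 and Asr. They also covered salt and water stress proteins, all protein phosphatases 2C and DREB factors, so this list is wider than the hormone. Of its 33 tested probes, 1 rose and 1 fell, and 8 had an unadjusted p under 0.05. The one that rose was ABI5 (AK105312), a bZIP factor of abscisic acid signalling, by 1.24 (SE 0.148, adjusted p = 0.00534), also in Nipponbare (1.29) and in 6-4 (1.19) alone. The one that fell was aldehyde oxidase-2 (AK105707), of a family that makes abscisic acid in its last step, by 1.36 on the log2 scale (SE 0.218, adjusted p = 0.0209). Its change was -1.59 in Nipponbare (adjusted p = 0.043) and -1.13 in 6-4, which did not pass (adjusted p = 0.119), and the line ratio was not shown to differ between conditions (0.46, adjusted p = 0.242). In the mean line ratio 0 of 21, 0 of 17 and 0 of 33 of these probes were called, and 1, 1 and 8 had an unadjusted p under 0.05, where 17.1% of all probes did. In the difference of the line ratio between conditions 3 of 21, 4 of 17 and 6 of 33 were called, where 19.7% of all probes were, so these shares lie near that of all probes.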

How the data were processed

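Root RNA of Nipponbare and 6-4 was measured on 6 Agilent arrays of 22575 spots, after linear amplification of the RNA, per the labels' protocols. The deposited intensity values of each spot in either dye, with those of its local background, came from Agilent Feature Extraction 7.1 (replicates 1 and 2) or 8.1 (replicate 3), per the file headers. P-deficient replicate 2 has version 8.1 in the submitters' processing notes. That software also subtracted background and normalized dyes for the deposited log10 ratios and processed signals, per the file headers. The deposited series table holds the same log10 ratios, turned to 6-4 over Nipponbare, for 22575 of 22575 spots within 0.005.

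Background was corrected with normexp (offset 50) in limma 3.58.1 (R 4.3.3), followed by loess within arrays. Line effects came from log2 ratios with a term for each condition and for dye (20528 probes). The mean response to P was fitted on the mean log2 intensity after Aquantile scaling (20531 probes). Responses within lines were fitted with lmscFit on single channels (12 in all, 20054 probes), with dye as a term and 0.785 as the intraspot correlation. Adjusted p is Benjamini-Hochberg over all probes tested, from limma's moderated test. The fits without the block were run on simulated data with known changes and independent noise. The simulated data held no dye, replicate or software effect, so the run does not bear on these. Members that passed the threshold, or ranked next by p, were named with values for every array, and each role's other members by range. Members and lists were chosen with earlier results of these data known.

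The labels number replicates alike in both conditions. Arrays of the same number deviated together in level, with correlations over probes of 0.402, 0.315 and 0.66, all above 0.1. For arrays of different numbers they ran from -0.531 to 0.277. Values with the replicate block therefore stand beside the responses, though replicate number and software version are not fully told apart. Line ratios of same-numbered arrays, which hold the lines in opposite dyes, deviated against each other (-0.604, -0.751 and -0.371). Arrays of different numbers deviated together in the same dye order (0.683, 0.544, 0.632 and 0.328) and against each other in opposite orders (-0.471 and -0.136). The signs for line ratios thus followed dye order and showed no pairing by replicate number. Alternatives covered background correction and scaling, the dye term, the filter, the block, the software version and leaving out arrays. Of the 75 members, 0 were found in the reference gene table, so descriptions are those of the array, and no positions or sequences are given. Results of 1 description are not reported here.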

Additional observations from a re-analysis of the deposited data

Results flagged for a closer look

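For 7 members the line ratio (6-4 over Nipponbare) differed between P-deficient and control roots, by limma's test of that difference. All values are log2 differences, P-deficient ratio minus control ratio. The OPR probe AK105590 had the greatest difference of the 7, -1.84, from 1.95 under control to 0.11 under P deficiency. The jasmonate-induced protein AK107844 differed by -1 (0.64 to -0.35) and the RD22-like AK065358 by -0.68 (0.25 to -0.43). The ACC synthase ACC1 (AK071011) differed by -0.61 (0.41 to -0.19) and the receptor ERS2 (AK111696) by -0.46 (0.31 to -0.15). The ratio was higher under P deficiency for RD22 (AK106070), by 0.76 (0.084 to 0.84), and for OPR2 (AK102440), by 0.55 (-0.25 to 0.30). The adjusted p-values ran from 0.00958 to 0.0487. The 7 are 10.4% of the 67 tested members, a lower share than the 19.7% of all probes that passed the same test. Without the dye term or without control replicate 2, 0 of the 7 passed. With the replicate block AK105590, AK107844 and AK065358 passed, and ACC1, ERS2, OPR2 and RD22 did not.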

How the results depend on the processing

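Counts of called members are given in the order mean line ratio, ratio under control, ratio under P deficiency, difference of the ratio, mean response to P, response in Nipponbare and response in 6-4. They were 1, 3, 2, 7, 1, 0 and 1. Over all probes 0.926%, 12.9%, 8.94%, 19.7%, 1.51%, 0.883% and 1.44% were called. With the replicate block the members gave 1, 2, 1, 4, 6, 7 and 8. There 1.5%, 6.59%, 3.44%, 12.4%, 4.28%, 12.1% and 14.8% of all probes were called. With the software version as a batch the counts were 0, 2, 1, 5, 6, 4 and 3. For most other settings the share of all probes is not given, so those counts are not set against it. Without the dye term the 4 line counts were 0, 0, 0 and 0 and the within-line responses 1 and 2. From the deposited processed signals the counts were 0, 1, 0, 1, 0, 0 and 1. Median centring within arrays gave line counts of 0, 1, 0 and 3, and median scaling between arrays gave responses of 0, 0 and 0. Without the filter on dim probes the counts under control, under P deficiency and for the difference were 7, 5 and 11, and with a filter on all 12 channels the line counts were 0, 0, 1 and 2. The arrays of the earlier software version alone gave 1, 7, 7, 9, 1, 0 and 0. Replicates 1 and 3 alone, an alternative chosen after seeing the data, gave 0 for the mean line ratio and 0 for the mean response, and allow no other fit because dye and condition coincide there. Quantile scaling between channels changed no count.

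Leaving out each array in turn gave 0 to 5, 0 to 10, 0 to 10, 0 to 14, 0 to 1, 0 to 0 and 0 to 1. Without control replicate 2, the control array with the opposite dye order, all 4 line counts were 0. Without control replicate 3 they were the highest, 5, 10, 10 and 14. The shares of all probes called in these fits are not given, so the counts do not set the members apart from other probes. The counts of line differences therefore depend on single arrays and on the dye term. Without replicate 2 a condition has 1 dye order only, and its dye effect is then taken from the other condition. No named member changed direction past the threshold under any alternative run. For called members, 88 alternative values stayed past the threshold and 118 did not. The cause was not tested. The 8 members too dim to test are limited by signal over background.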
